A study of Saccharomyces bayanus x Saccharomyces cerevisiae with 8 samples.

Results

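The genes described here are those of the proteasome, its maturation factor UMP1 and its transcriptional regulator RPN4 in a hybrid yeast, read separately for the S. cerevisiae and the S. bayanus allele of each gene. They were chosen from a fixed list of 34 systematic open reading frame (ORF) names that covers the subunits of the 20S core particle and of the 19S regulatory particle, UMP1 and RPN4. Of these, 33 stand among the 4238 ortholog pairs of the deposited table, and all 33 passed the filter on low counts, as did 4197 genes in all. The lid subunit RPN6 (YDL097C) was not analysed here. The list is one of gene names and sets no threshold on a measured value, but it was drawn up with earlier results of these data known.

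The strain was OZY27, a diploid hybrid that carries 1 genome of S. cerevisiae, isogenic to W303, a common laboratory strain, with the markers his3, leu2, lys2, trp1 and ura3, and 1 genome of S. bayanus derived from CBS 4001, with the markers ade2, his3 and lys2. Cultures were grown in the rich glucose medium YPD at 25 °C to log phase. There were 2 cultures, called biological replicates 1 and 2, and each gave 1 Illumina library of total RNA. The 8 samples were sequencing lanes of these libraries: lanes 1, 2 and 5 at the site UCB and lanes 6 and 8 at the site UCR for replicate 1, and lanes 3 and 4 at UCB and lane 7 at UCR for replicate 2. Lanes of 1 library are repeat runs, so n = 2 cultures of 1 hybrid strain, with no parent strain beside them.

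The proteasome degrades proteins that carry ubiquitin chains. Its 20S core is a barrel of outer alpha rings, which gate the entry, and inner beta rings, which hold the proteolytic sites. The 19S particle caps the barrel: a ring of ATPases unfolds the substrate, other base subunits bind ubiquitin, and the lid removes the ubiquitin chain. In S. cerevisiae, Rpn4 is a short-lived activator of proteasome genes that is itself degraded by the proteasome, which closes a feedback loop. Both alleles in the hybrid share 1 nucleus and 1 pool of such regulators, so the comparison between alleles asks how far each gene's own copy sets its transcript level in the same cells.

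Every lane held between 2350222 and 3159446 reads assigned to an allele, which sum to 14707025 in replicate 1 and 8223099 in replicate 2. Over both alleles, a proteasome gene held between 1288 and 13703 reads in a replicate, and the lowest single allele held 595 reads. The median was 8108 reads over both replicates, against 2673 for all genes tested.

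RPN4 was expressed nearly equally from its alleles. The S. bayanus allele of RPN4 (YDL020C, chromosome IV) held 1180 and 693 reads in replicates 1 and 2, and the S. cerevisiae allele 1092 and 595. Per kilobase of mappable length and per 1000000 reads of that genome, the unit of every level below, the S. bayanus allele stood at 104 and 107 in the replicates and the S. cerevisiae allele at 102 and 103. The log2 ratio of the S. bayanus to the S. cerevisiae allele, which is positive where the S. bayanus allele is higher, was 0.27, -0.25, 0.10, -0.09 and 0.21 in lanes 1, 2, 5, 6 and 8 of replicate 1 and 0.16, 0.12 and -0.13 in lanes 3, 4 and 7 of replicate 2. The lanes thus lay on both sides of 0 in either culture, with the S. bayanus allele higher in 5 of 8. The fitted ratio was 0.04 (SE 0.09, 95% interval -0.18 to 0.26, adjusted p = 0.728, edgeR quasi-likelihood test over 4197 genes). With 2 cultures, ratios anywhere in this interval are compatible with these counts.

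Among the 33 genes, 14 differed between the alleles at an adjusted p under 0.05 in edgeR's quasi-likelihood test, where 53.5% of all 4197 genes did. The S. cerevisiae allele was higher for 9, against 26.9% of all genes, and the S. bayanus allele for 5, against 26.6%. When both alleles were scaled by 1 library size, which raises the median ratio of all genes by 0.11, 10 members were called. Of these, 4 had a higher S. cerevisiae and 6 a higher S. bayanus allele. Among all genes, 813 and 1320 were then called in these directions, beside 1129 and 1118 in the main fit. The balance between the genomes thus depends on this scaling, in all genes as in the members. A difference of at least 1.5-fold was called for 4 genes, against 29.6% of all genes: PRE2 and RPN8 with the S. cerevisiae allele higher, RPN12 and UMP1 with the S. bayanus allele higher. Across the members the median ratio was -0.07 and the median size of the ratio without its sign 0.28, beside -0.003 and 0.37 over all genes. The direction was the same in all 8 lanes for 13 of the 14 called genes, and the exception was RPN10, in lane 4. These genes were called on the sums of the same lanes, so the agreement was largely built in. PRE8, PUP2, PUP1, RPT6 and RPN9, which were not called, also had 1 direction in all 8 lanes.

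**Figure D1:**
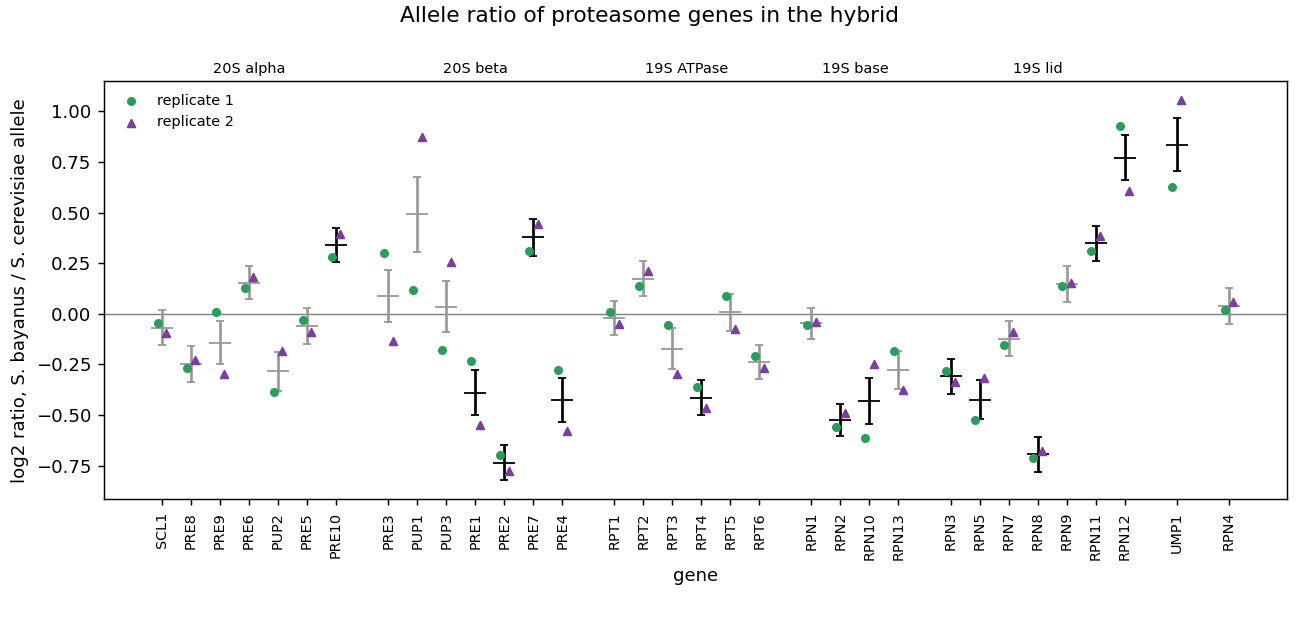
Log2 ratio of the S. bayanus to the S. cerevisiae allele (vertical axis) for the 33 proteasome genes, grouped by subcomplex; points are the 2 biological replicates, horizontal bars the fitted ratio and error bars its SE, black where the adjusted p was under 0.05 and grey otherwise. Ratios ran from -0.74 for PRE2 to 0.84 for UMP1, and RPN4 lay at 0.04.

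The member with the highest ratio was UMP1 (YBR173C, chromosome II), which encodes a chaperone that joins core particle precursors and is degraded when the core matures. Its S. bayanus allele held 2638 and 1757 reads in replicates 1 and 2, and its S. cerevisiae allele 1617 and 763. The log2 ratio was 0.69, 0.53, 0.74, 0.66 and 0.59 in the lanes of replicate 1 and 0.94, 1.15 and 1.07 in those of replicate 2. Every lane had the S. bayanus allele higher, and the lanes of the cultures did not overlap. The fitted ratio was 0.84 (SE 0.13; adjusted p = 0.00505, edgeR), a 1.78-fold difference. The S. bayanus ortholog is richer in G and C by 8.65 percentage points, against a median of 1.68 for the members and 1.75 for all genes, and with the trend of the ratio on the GC difference removed the ratio was 0.56 and still called.

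Of the 7 genes of the alpha ring, 1 was called. PRE10 (YOR362C), a structural subunit of the ring, had the S. bayanus allele higher, with ratios of 0.28 and 0.40 in the replicates, 0.24 to 0.50 over the 8 lanes, and a fitted ratio of 0.34 (SE 0.08; adjusted p = 0.0214, edgeR). With the GC trend removed its ratio was 0.17 and no longer called, and with DESeq2 its adjusted p was 0.0546. The other 6 alpha genes, SCL1, PRE8, PRE9, PRE6, PUP2 and PRE5, had fitted ratios between -0.28 and 0.15.

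Of the 7 genes of the beta ring, 4 were called, in both directions. PRE2 (YPR103W, chromosome XVI) encodes the subunit with the chymotrypsin-like site. Its S. cerevisiae allele held 3714 and 2020 reads in the replicates and its S. bayanus allele 2427 and 1307. The ratio was -0.65, -0.53, -0.88, -0.73 and -0.62 in the lanes of replicate 1 and -0.74, -0.86 and -0.70 in those of replicate 2. The S. cerevisiae allele was higher in every lane by a similar amount in both cultures, and the fitted ratio was -0.74 (SE 0.09; adjusted p = 0.00239, edgeR), a 1.66-fold difference. PRE4 (YFR050C), a subunit without a proteolytic site of its own, also had the S. cerevisiae allele higher, with ratios of -0.28 and -0.58 in the replicates and -0.42 in the fit (SE 0.11; adjusted p = 0.0234). PRE1 (YER012W), another such subunit, had ratios of -0.23 and -0.55 and a fitted ratio of -0.39 (SE 0.11; adjusted p = 0.0323, edgeR). For PRE1 and PRE4 the size rests on the second culture, since the value in replicate 1 alone is over 1.5 times smaller than the fitted one. The call of PRE4 was lost with 1 library size for both alleles (adjusted p = 0.0609, edgeR) and with no replicate block (adjusted p = 0.155, edgeR). That of PRE1 was lost in 5 of the 21 settings with a test: 1 library size (adjusted p = 0.0847), the UCB lanes alone (0.0501), DESeq2 (0.0559), no replicate block (0.181) and without lane 2 (0.0572). PRE7 (YBL041W) was the beta gene with the S. bayanus allele higher, at 0.31 and 0.45 in the replicates and 0.38 in the fit (SE 0.09; adjusted p = 0.0199, edgeR). With the GC trend removed its ratio was 0.20 and was not called. The remaining beta genes, PRE3, PUP1 and PUP3, differed in ratio between the cultures and are described with them.

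In the base of the 19S particle, 3 of 10 genes were called, each with the S. cerevisiae allele higher. Of the 6 ATPases this was RPT4 (YOR259C), with ratios of -0.36 and -0.46 in the replicates and -0.41 in the fit (SE 0.09; adjusted p = 0.0127, edgeR). The other 5 ATPase genes had fitted ratios between -0.24 and 0.17. RPN2 (YIL075C), a large scaffold subunit and the member with the most reads, held 8122 and 5414 reads from the S. cerevisiae and 5581 and 4093 from the S. bayanus allele. Its ratios were -0.56 and -0.49 in the replicates and -0.52 in the fit (SE 0.08; adjusted p = 0.0045, edgeR), and its 8 lanes kept between -0.61 and -0.40. RPN10 (YHR200W), a ubiquitin receptor, had ratios of -0.61 in replicate 1 and -0.25 in replicate 2 and -0.43 in the fit (SE 0.11; adjusted p = 0.0261, edgeR). It was called in 16 of the 21 settings with a test. The losses included 1 library size for both alleles, the UCB lanes alone and the fits without lane 3 or lane 7. Its ratio in replicate 2 alone was over 1.5 times smaller than the fitted one. RPN1 and RPN13, which also bind ubiquitin, were not called, at -0.05 and -0.28.

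In the lid, 5 of the 7 genes that were measured were called, with the S. cerevisiae allele higher for 3 and the S. bayanus allele for 2. RPN8 (YOR261C, chromosome XV) encodes the partner of the lid's deubiquitinase. Its S. cerevisiae allele held 3288 and 1622 reads and its S. bayanus allele 2092 and 1106. The ratio was -0.82, -0.64, -0.70, -0.74 and -0.56 in the lanes of replicate 1 and -0.72, -0.64 and -0.64 in those of replicate 2. The ratio was thus nearly the same in both cultures, with a fitted value of -0.69 (SE 0.09; adjusted p = 0.00278, edgeR), a 1.62-fold difference. RPN11 (YFR004W), the deubiquitinase itself, had the opposite direction, at 0.31 and 0.38 in the replicates and 0.35 in the fit (SE 0.09; adjusted p = 0.0228, edgeR), and was not called by DESeq2 (adjusted p = 0.0711).

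RPN12 (YFR052W, chromosome VI) is a lid subunit that is among the last to join the lid in S. cerevisiae. Its S. bayanus allele held 3704 and 1661 reads and its S. cerevisiae allele 1841 and 984. The ratio was 0.74, 0.86, 0.91, 1.17 and 1.02 in the lanes of replicate 1 and 0.60, 0.38 and 0.87 in those of replicate 2. The S. bayanus allele was higher in each lane, and the cultures overlapped. The fitted ratio was 0.77 (SE 0.11; adjusted p = 0.00415, edgeR), a 1.71-fold difference. RPN12 had the widest GC difference of the members, 9.78 percentage points, and its ratio was 0.44 and still called with the GC trend removed. It was 0.66 in the UCB lanes alone and 0.99 in the UCR lanes alone.

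The structural lid subunits RPN5 (YDL147W) and RPN3 (YER021W) had the S. cerevisiae allele higher. RPN5 had ratios of -0.53 and -0.32 in the replicates and -0.42 in the fit (SE 0.10; adjusted p = 0.0175, edgeR). It was called in 19 of the 21 settings with a test, and the losses included 1 library size for both alleles (adjusted p = 0.0717, edgeR). With the GC trend removed its ratio was -0.26 and still called. RPN3 had -0.28 and -0.34 in the replicates and -0.31 in the fit (SE 0.09; adjusted p = 0.0317, edgeR), a call that was lost under 5 of the alternatives tried, DESeq2 among them (adjusted p = 0.111). The other lid genes measured, RPN7 and RPN9, had fitted ratios of -0.12 and 0.15 and were not called.

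Of 2 pairs of close neighbours among the members, 1 shared a direction. The ORF names place PRE4 and RPN12 on the right arm of chromosome VI with 1 ORF number between them, and their ratios were -0.42 and 0.77. RPT4 and RPN8 lie on the right arm of chromosome XV, also with 1 ORF number between them, and had -0.41 and -0.69. The 33 genes lie on 13 chromosomes, with at most 6 on 1 of them (XV). Across the 33 genes, the ratio and the GC difference of the orthologs had a Pearson correlation of 0.47, against 0.18 across all genes tested; genes are not independent replicates, and this is a description.

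Transcript levels were higher for the core than for most of the 19S particle. As means over both alleles and replicates, the 14 core genes lay between 485 and 911, the 6 ATPases between 343 and 454, the other 4 base genes between 332 and 605 and the 7 lid genes between 238 and 477. Every core gene stood above every gene of the 19S particle on this mean, apart from RPN10 at 605. Mappable lengths ran from 429 to 746 bases in the core, 850 to 1121 in the ATPases, 384 to 2465 in the other base genes and 726 to 1344 in the lid, and the part of length in the order of the levels was not tested. The median member stood at 477, against 91.9 for all genes. PRE6, an alpha subunit, had the highest level, at 909 and 1014 for the S. bayanus allele in the replicates and 825 and 896 for the S. cerevisiae allele. UMP1 stood at 708. RPN4 was the lowest of the 33 at 104, at percentile 53.8 of all genes.

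**Figure D2:**
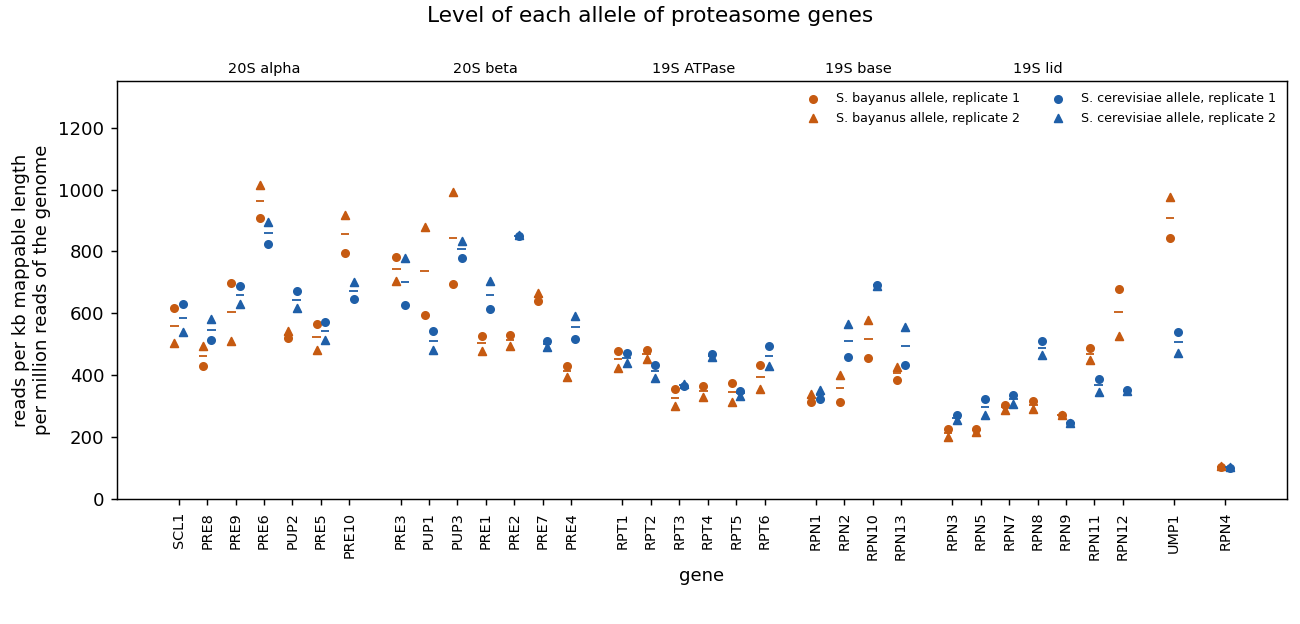
Level of each allele (vertical axis, reads per kilobase of mappable length per 1000000 reads of that genome) for the 33 proteasome genes, by subcomplex; circles are replicate 1, triangles replicate 2, and short bars their mean. Core genes lay between 485 and 911 on the mean of both alleles, lid genes between 238 and 477, and RPN4 at 104.

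The Pearson correlation was 0.83 between the log2 levels of the alleles across the 33 genes, which share the libraries, against 0.92 across all genes. The members' log2 levels had a narrower spread, and its part in the lower correlation was not tested. Their SD was 0.67 for the S. bayanus and 0.61 for the S. cerevisiae allele, against 2.07 and 2.05 for all genes. The median size of the ratio was smaller among the members, at 0.28 against 0.37. The 31 subunits took 1.17% and 1.18% of the S. bayanus reads in the replicates and 1.26% and 1.27% of the S. cerevisiae reads. The core took 0.498% and 0.521% of the S. bayanus and 0.510% and 0.520% of the S. cerevisiae reads, values that overlap between the genomes. The 19S particle took 0.677% and 0.662% of the S. bayanus reads and 0.749% and 0.751% of the S. cerevisiae reads, values that do not overlap between the genomes. Much of this gap came from RPN2, with 8122 and 5414 S. cerevisiae against 5581 and 4093 S. bayanus reads. The shares are not corrected for length, and the mappable length of RPN2 was 2465 bases in S. cerevisiae and 2358 in S. bayanus. Each share is a part of that genome's own reads, and the S. bayanus total was the larger in every lane. The size of the gap thus depends on this scaling, and no test of it was made. Of the 17 genes of the particle, 12 had a fitted ratio below 0 and 5 above. Of all 4197 genes tested, 2103 lay below 0 and 2094 above.

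The allele ratio of some members differed between the cultures. A test of the allele by replicate interaction, with lanes as units, called 10 of the 33 genes, where 17.9% of all genes were called. Each culture gave 1 library, so a p here is set by how far repeat lanes scatter and not by how far cultures do. The median size of the shift without its sign was smaller among the members, at 0.10 against 0.17 for all genes. Members also held more reads, with a median of 8108 against 2673. The part of read depth in the count of calls was not tested. The S. bayanus share was higher in replicate 2 for 4 genes (8.72% of all genes) and in replicate 1 for 6 (9.22%). A shift of at least 1.5-fold was called for 1 gene, PUP1, against 5.29% of all genes. The lanes of the cultures did not overlap for 8 of these 10, the exceptions being RPN10 and RPN12, nor for 1 gene that was not called, RPT4. The 10 were called on these same lanes, so separation of their lanes was largely built in. Such separation was seen for 9 of the 33 members and for 22.2% of all genes. Of the 7 beta-ring genes, 5 were among those called, against 1 of 7 alpha, 1 of 6 ATPase, 1 of 4 other base and 1 of 7 lid genes.

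The widest shift was that of PUP1 (YOR157C, chromosome XV), the beta subunit with the trypsin-like site. Its S. bayanus allele held 3066 and 2610 reads in the replicates and its S. cerevisiae allele 2674 and 1286. The ratio was 0.09, 0.19, 0.16, 0.11 and 0.12 in the lanes of replicate 1 and 0.78, 0.90 and 0.95 in those of replicate 2. Lanes of 1 culture lay close together and the cultures were far apart. The shift, replicate 2 minus replicate 1, was 0.74 (SE 0.07; adjusted p = 1.7e-09, edgeR interaction test), or 1.67-fold. The level of the S. bayanus allele went from 594 to 879 and that of the S. cerevisiae allele from 543 to 482. Over both cultures the fitted ratio was 0.49 (SE 0.18; adjusted p = 0.0722, edgeR), and the call of an allele difference depended on the setting: 5 of the alternatives called it, among them DESeq2 (adjusted p = 0.0305) and the fit without lane 4 (adjusted p = 0.0213).

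PRE3 (YJL001W), the subunit with the caspase-like site, shifted the other way. Its ratio was 0.17, 0.38, 0.30, 0.39 and 0.36 in the lanes of replicate 1 and -0.09, -0.10 and -0.24 in those of replicate 2, so that the higher allele changed from S. bayanus to S. cerevisiae. The shift was -0.46 (SE 0.08; adjusted p = 8.75e-05, edgeR). PUP3 (YER094C), a beta subunit without a proteolytic site, changed in the opposite sense, from -0.12, -0.10, -0.24, -0.28 and -0.05 in the lanes of replicate 1 to 0.13, 0.50 and 0.09 in those of replicate 2. Its shift was 0.41 (SE 0.08; adjusted p = 0.000655, edgeR). PUP1, PRE3 and PUP3 were called in each of the 19 settings in which the interaction was tested.

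UMP1 shifted by 0.41 (SE 0.08; adjusted p = 0.000618, edgeR) towards the S. bayanus allele in replicate 2, and RPN10 by 0.34 (SE 0.09; adjusted p = 0.00718). Both shifts were gone with the GC trend removed in each lane, at -0.03 for UMP1 and -0.02 for RPN10, whose orthologs differ in GC by 8.65 and 7.86 percentage points. RPN10 was also not called without lane 4, at 0.21. RPN12 shifted towards the S. cerevisiae allele in replicate 2, by -0.33 (SE 0.10; adjusted p = 0.0158, edgeR). Its shift was -0.17 without lane 4, was not called without lane 3, 4, 6 or 8, and was -0.90 with the GC trend removed. PRE1, PRE9 and PRE4 had shifts of -0.33, -0.33 and -0.32 and RPT3 one of -0.26. Of the 19 settings, PRE9 was called in 17, PRE1 in 15, PRE4 in 14 and RPT3 in 9. PRE1 was not called without lane 4, at -0.22, PRE4 without lane 3, at -0.24, and RPT3 without lane 2, 3, 5 or 7, at -0.17 without lane 7. RPN4 did not pass the test, with a shift of 0.02 (SE 0.12; adjusted p = 0.941).

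**Figure D3:**
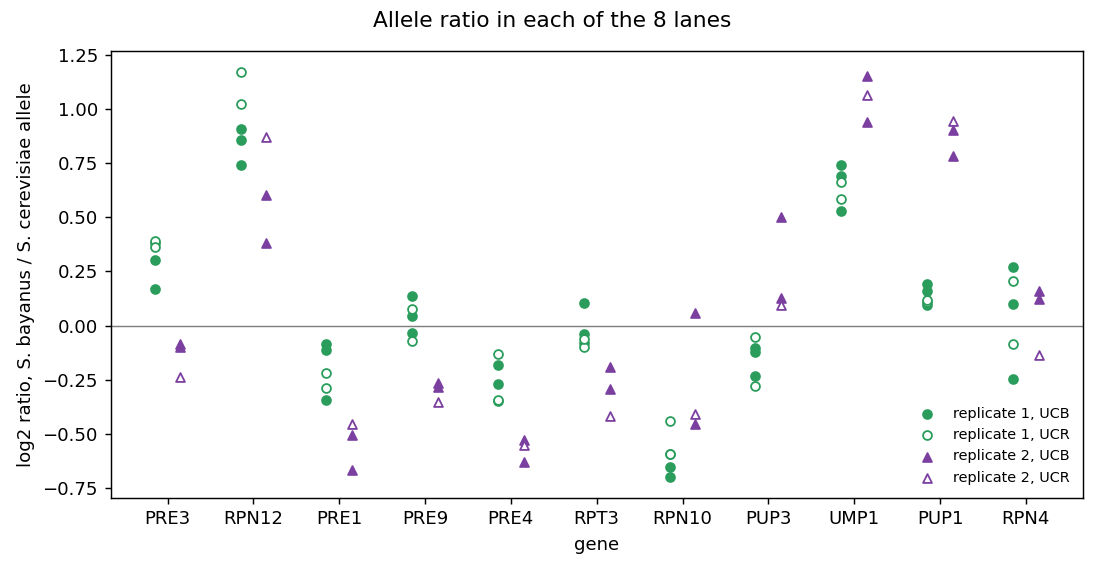
Log2 ratio of the S. bayanus to the S. cerevisiae allele (vertical axis) in each of the 8 lanes for the 10 genes whose ratio differed between the cultures and for RPN4; circles are lanes of replicate 1, triangles lanes of replicate 2, filled at UCB and open at UCR. PUP1 ratios were 0.09 to 0.19 in replicate 1 and 0.78 to 0.95 in replicate 2.

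The level of the members in the cultures is given as a description, since 1 library each allows no test. On TMM-scaled counts with 0.5 reads added, the log2 change from replicate 1 to replicate 2 over both alleles had a median of 0.08 among the members (range -0.17 to 0.43), beside -0.004 for all genes, with 21 members above and 12 below 0. With scaling by column totals the medians of the members and of all genes were -0.03 and -0.12, so the sign of the members' median depends on the scaling. A scaling shifts all genes nearly alike, so the place of the members relative to all genes could hardly change. All 7 beta-ring genes and all 4 base genes that are not ATPases had a change above the all-gene median, as did 22 of the 33 members. The changes of these 4 base genes were 0.24 for RPN1, 0.43 for RPN2, 0.26 for RPN10 and 0.38 for RPN13, and those of the alleles of RPN10 were unlike, at 0.47 for S. bayanus and 0.10 for S. cerevisiae. The ATPases changed by -0.12 to 0.04 and the lid genes by -0.11 to 0.12. RPN4 itself changed by 0.16 on the S. bayanus and 0.11 on the S. cerevisiae allele. Among all genes, the middle 50% of changes lay between -0.19 and 0.24.

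**Figure D4:**
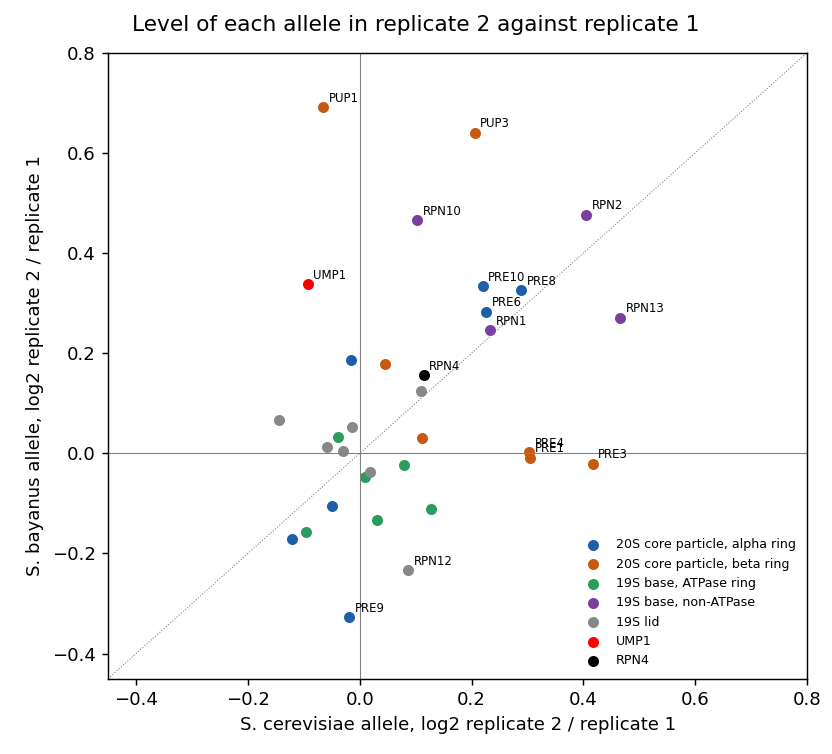
Log2 change of the level from replicate 1 to replicate 2 for the S. cerevisiae allele (horizontal axis) and the S. bayanus allele (vertical axis) of the 33 proteasome genes, coloured by subcomplex; the dotted line marks equal change of both alleles. RPN2 lay near the line at 0.40 and 0.48, while PUP1 lay at -0.07 for the S. cerevisiae and 0.69 for the S. bayanus allele.

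No gene of the table differed in allele ratio between the sequencing sites at an adjusted p under 0.05 (0% of 4197, edgeR allele by site interaction), and 5.27% did at an unadjusted p under 0.05. Among the proteasome genes 5 of 33 had an unadjusted p under 0.05: RPT2, RPN12, PRE8, RPN5 and RPT6. For RPN12 the ratio was higher at UCR by 0.30 and for RPT2 it was lower by -0.30.

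Genes around the proteasome were read from fixed lists. They too were called on sums of the lanes, so agreement of the lanes of a called gene was largely built in. Of 13 assembly chaperones and other proteasome-bound proteins, 12 were measured and 7 called, or 58.3%, beside 53.5% of all genes. The S. bayanus allele was higher for 6, against 26.6% of all genes. These were ADD66, POC4, NAS2, NAS6, RPN14 and ECM29, at 0.40 to 0.56. The S. cerevisiae allele was higher for 1, against 26.9% of all genes. That gene was PBA1 (YLR199C), which with ADD66 forms a chaperone of the alpha ring. PBA1 had ratios of -0.55 and -1.02 in the replicates and -0.77 in the fit (SE 0.14; adjusted p = 0.00865, edgeR; S. cerevisiae allele higher in 8 of 8 lanes), while ADD66 (YKL206C) had 0.56 (SE 0.10; adjusted p = 0.00713, edgeR; S. bayanus allele higher in 8 of 8 lanes). The partners thus differed in direction, and with the GC trend removed PBA1 was at -0.33 and still called. The list's median ratio was 0.29, beside -0.003 for all genes.

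Of 16 ubiquitin, CDC48 and shuttle factors, 14 were measured and 5 called, or 35.7%, against 53.5% of all genes. The S. cerevisiae allele was higher for 4 of these, against 26.9% of all genes. DDI1 (YER143W), a shuttle factor, had a ratio of -0.62 (SE 0.10; adjusted p = 0.00601, edgeR; 8 of 8 lanes), which was -0.34 and still called with the GC trend removed. UBC5 (YDR059C), a ubiquitin-conjugating enzyme, had the S. bayanus allele higher at 1.61 (SE 0.15; adjusted p = 0.00144, edgeR; 8 of 8 lanes), but it has a near-identical paralog, UBC4, which was not analysed here, so reads may be split between them and the value is uncertain. DSK2 (YMR276W), a shuttle factor singled out after its values were seen, differed between the cultures: its S. bayanus allele held 1680 and 4124 reads in the replicates, and its S. cerevisiae allele 3913 and 2180. The level of the S. bayanus allele of DSK2 went from 226 to 963 and that of the S. cerevisiae allele from 540 to 554. The shift of its ratio was 2.03 (SE 0.10; adjusted p = 1.1e-15, edgeR) with no overlap of lanes, and it was at least 1.68 in each of 19 settings.

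Of 8 regulators of RPN4, 6 were measured and 3 called, or 50%, beside 53.5% of all genes. The activators HSF1 (YGL073W) and PDR1 (YGL013C) had the S. bayanus allele higher, at 0.36 and 0.31 (adjusted p = 0.0299 and 0.0392, edgeR), and DESeq2 called neither (adjusted p = 0.0812 and 0.215). PDR3 (YBL005W), a paralog of PDR1, had the S. cerevisiae allele higher, at -0.73 (SE 0.11; adjusted p = 0.00453, edgeR; 8 of 8 lanes). The activator YAP1 and the genes MUB1 and RAD6, which act in the ubiquitination of Rpn4, were not called, at 0.24, -0.09 and -0.30.

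The CCT chaperonin and the core of RNA polymerase II, other complexes of many subunits, are given for scale. The CCT genes had 3 of 6 called, each with the S. bayanus allele higher, led by TCP1 (YDR212W) at 0.84. The polymerase genes had 2 of 8 called, 1 in each direction. Among all genes 53.5% were called, 26.6% with the S. bayanus and 26.9% with the S. cerevisiae allele higher. Both lists are small, and no test of a difference from the proteasome genes was made.

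The authors' deposited table calls 12 of the 33 genes at its 0.05 level, where it calls 49.3% of all genes. By the authors' deposited table the S. bayanus allele was higher for 6 of these and the S. cerevisiae allele for 6. Its calls and those of edgeR share 11 genes, each with the same direction; RPT2 was called in the authors' deposited table alone, and PRE1, RPN3 and RPN5 by edgeR alone.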

How the data were processed

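Raw read counts for each ortholog, lane and allele were deposited. Bowtie was used, per the submitters' processing notes. Not given in the sources used here are its version, the genome builds, the annotation, the use of strand and how reads that match both genomes were handled. The authors also deposited, per the file headers, a natural log ratio and a p-value for each biological replicate, a score of -1, 0 or 1 as the call of a gene, and 2 properties of the orthologs, the mappable length in bases and the GC difference as a score. Another 4 columns of sums were not used.

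Counts were summed over the lanes of a culture. The main test was edgeR 4.0.16 (R 4.3.3), a quasi-likelihood test on 2 replicates by 2 alleles blocked on the replicate (the alleles of a replicate come from the same library), with TMM factors for each allele column and the log mappable length as an offset. The filter kept genes with 10 or more reads, alleles summed, in replicate 1 and in replicate 2. The p-values were adjusted by Benjamini-Hochberg over 4197 genes and called under 0.05. TMM sets the typical gene to equal alleles. The culture and site tests were interactions in edgeR, on lanes and on sums per replicate and site. DESeq2 1.42.0 was an alternative, beside other scalings, filters, sites, left-out lanes and replicates, and removal of a lowess trend (span 0.3) on the GC difference. The tests were tested on simulated data, whose spread was chosen and may differ from that of these cultures. The allele test found 26% of 50 genes changed 1.2-fold and 92% of 50 changed 1.5-fold, with 11 false calls. For the culture test these were 22% and 74%, with 8 false calls. Small differences can thus go uncalled. Python 3.11.15 with pandas 2.3.3 and numpy 2.4.6 made the tables, and matplotlib 3.10.9 the plots.

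The members and lists were chosen with earlier results of these data known. All called members are named, with RPN4, UMP1 and members called for a shift between cultures; in the other lists, called genes of at least 1.5-fold and a few more were named. The files give ORF names, and gene symbols and roles follow the standard S. cerevisiae nomenclature and were not read from a table here. Promoter motifs and sequences were not analysed here.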

Additional observations from a re-analysis of the deposited data

Results flagged for a closer look

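Among the 33 proteasome genes, 2 had a lane of replicate 1 far from the other 4, a gap that chance gives in about 1 of 20 groups. For RPT3 the log2 allele ratio was 0.1 in lane 5 and between -0.1 and -0.04 in the others, and for RPT5 it was -0.08 in lane 2 and between 0.13 and 0.17 in the others.

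The allele ratio differed between the cultures for 10 genes, by the edgeR interaction test with lanes as units (replicate 2 minus replicate 1, log2). The S. bayanus share was higher in replicate 2 for PUP1 by 0.74 (adjusted p = 1.7e-09), PUP3 by 0.41 (adjusted p = 0.000655), UMP1 by 0.41 (adjusted p = 0.000618) and RPN10 by 0.34 (adjusted p = 0.00718). The shift was -0.46 for PRE3 (adjusted p = 8.75e-05), -0.33 for PRE9 (adjusted p = 0.00194), -0.33 for PRE1 (adjusted p = 0.0059), -0.32 for PRE4 (adjusted p = 0.00488), -0.33 for RPN12 (adjusted p = 0.0158) and -0.26 for RPT3 (adjusted p = 0.0242). Each culture gave 1 library, so a difference between cultures and one between libraries cannot be told apart.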

How the results depend on the processing

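PRE2, RPN8, RPN12 and UMP1 kept their direction and their call in each of the 21 settings with a test. RPN2 and RPT4 were called in 20, PRE4, PRE7, RPN5 and RPN11 in 19, PRE10 in 18, and PRE1, RPN3 and RPN10 in 16. The count of called members (14, of which 5 with the S. bayanus and 9 with the S. cerevisiae allele higher) was 4 without the replicate block (2 and 2), against 866 of all genes in place of 2247; the block pairs the alleles of 1 library. It was 23 with lanes as units (9 and 14), against 3172 of all genes. With 1 library size for both alleles it was 10, 4 of them with the S. cerevisiae allele higher, against 2133 of all genes. With the GC trend removed it was 19, against 2439 of all genes, and only 11 of the 14 main calls were among these 19. With each lane left out in turn it was 13 to 17 (5 to 6 and 8 to 11), against 2042 to 2381 of all genes. The culture test called 10 members (4 with the S. bayanus share higher in replicate 2 and 6 in replicate 1), where 17.9% of all genes were called. It called 5 in the UCR lanes alone (4 and 1), 4 with DESeq2 (3 and 1), and 7 to 10 with a lane left out (3 to 6 and 3 to 6). With the GC trend removed it called 2 and 10, and with 1 library size 5 and 2. The median shift of all genes was -0.07 and 0.05 in these settings, beside -0.03 in the main fit. Calls of the culture test over all genes are given here for the main fit only. These changes in count are therefore no result about the members alone. The causes were not tested. The members' median level change was -0.033 with column totals.

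Ratios near 0 changed sign: without replicate 1 or replicate 2, PRE9 was -0.298 or 0.0092, PRE3 -0.135 or 0.302, and PUP3 0.254 or -0.180. RPN4 was -0.036 in the UCR lanes. PUP3 was -0.146 with the GC trend removed, -0.049 in the UCR lanes, -0.0059 with lanes as units and -0.031 without lane 4. Shifts of RPN10 and UMP1 were -0.025 and -0.032 with the GC trend removed. That of RPN4 was -0.13 in the UCR lanes and ran from -0.042 to 0.137 with a lane left out. Ratios near 0 of other uncalled members also changed sign under some settings. The search for the Rpn4 promoter motif was not run. With 2 cultures, the smallest difference called among the members was 1.24-fold.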
